A study of Danio rerio with 3 samples.

Results

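The mesenchymal epicardium is the fibroblast-like layer of the zebrafish heart's covering that lies beneath the outer epithelial sheet. Its cells were compared here between hearts collected 3 days after injury (3 dpa) and uninjured hearts (Ctrl). The cells were chosen by their measured counts. A cell was kept with at least 317 detected genes and at most 5% of its UMIs (unique molecular identifiers, counted once per captured RNA molecule) on mitochondrial genes. A kept cell was taken as mesenchymal with at least 2 UMIs of hapln1a, fewer than 5 UMIs per 10000 summed over the epithelial genes podxl, cldnc, jam2b, ucmaa and slc29a1b, no UMI of the leukocyte gene ptprc, and under 50 per 10000 of the cardiomyocyte gene myl7. This gate held 2520 of 5098 Ctrl cells and 1448 of 3905 cells at 3 dpa, together 3968 of 9003. The library from 7 dpa held 3061 such cells of 6624, and its levels are set beside those of Ctrl and 3 dpa only where a gene is described.

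The fish were 6 months old, of the EK strain, and all carried the tcf21:nucEGFP reporter, in which regulatory sequence of the epicardial transcription factor gene tcf21 drives nuclear green fluorescent protein. The 3 dpa fish had part of the ventricle cut off, and the Ctrl fish had no injury. Ventricles were dissociated, EGFP-positive cells were sorted, and 1 droplet library (10x Genomics, 3' v3) was made per condition. Only cells bright enough for the sort were sampled, and since 1 library stood for each condition, differences between fish, dissections and libraries cannot be told apart from the injury. Intervals below are 95% intervals for counting error only, and no p-value was computed.

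The epicardium of adult zebrafish is quiet until the heart is injured, when it switches on developmental genes, divides and covers the wound. Mesenchymal epicardial cells settle under this sheet and lay down matrix such as collagens, fibronectin and hyaluronan. Hyaluronan is the sugar polymer that Hapln1a links to proteoglycans. According to the paper, progenitors within the epicardium become fibroblasts and mural cells, such as pericytes. The epicardium as a whole also releases signals to muscle and vessels, among them retinoic acid, neuregulin, midkine and VEGF.

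Depth differed between the libraries. The members' median was 4658 UMIs at Ctrl and 8014 at 3 dpa, and their UMIs summed to 13028019 and 15232489. Cells of at least 16000 UMIs were 26 of 2520 members at Ctrl (1.03%, 4.16% of the members' UMIs) and 285 of 1448 at 3 dpa (19.7%, 45.1% of the UMIs). A level below is a gene's UMIs per 10000 UMIs summed over the members of a library. Ratios were also computed after each cell was reduced by random draw to 1800 UMIs (thinned, without the 77 and 41 members that had fewer), and over the 1745 Ctrl and 575 3 dpa members of 3000 to 8000 UMIs (matched depth). Beside a printed ratio, the matched-depth ratio is given wherever the call was lost there or the ratio moved by over 1.5-fold, and for some other genes too. Libraries Ctrl and 3 dpa shared 7 cell barcodes among the kept cells, 2 of them members in both. Fewer cells of a state and less RNA of a gene per cell cannot be told apart in a summed level.

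The genes that chose the cells are given as a description only. The level of hapln1a was 18.6, 12.9 and 18.7 at Ctrl, 3 dpa and 7 dpa. Of the cells passing all other gates, 527 Ctrl and 239 3 dpa cells had 1 UMI of hapln1a and lay just outside, while 370 and 162 members had 2 UMIs and lay just inside. Because 2 UMIs are a smaller share of a deep cell, 55.8% of the 3 dpa members of at least 16000 UMIs had under 5 hapln1a UMIs per 10000, against 63 of the 575 of 3000 to 8000 UMIs. At the epithelial limit, 8 Ctrl and 8 3 dpa members had a sum of 4 to 5 per 10000, and 5 and 6 cells of 5 to 6 per 10000 were outside. Of 9 mesenchymal markers, 3 were higher and 6 lower at 3 dpa by any amount, 1 of the 6 (nrg1) by at least 2-fold. The list summed to 194 and 148 at Ctrl and 3 dpa against 15.9 and 17.6 in the leukocyte gate. In epithelial cells of the same libraries (the epithelial gate, described below) it summed to 117 and 68.5. The 9 include hapln1a, whose part of those contrasts was set by the gates. Decorin (dcn), a small proteoglycan of connective tissue, was at 19.5 and 20.3 at Ctrl and 3 dpa, against 1.27 and 2.34 in the leukocyte gate (70 and 100 cells with a UMI of ptprc and under 2 of hapln1a, median 6294 and 6364 UMIs). The PDGF receptor gene pdgfra was at 1.03 and 1.56, against 0 and 0.127 UMIs per 10000 in the leukocyte gate.

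Markers of other cell types were low, with exceptions that moved between the libraries. Of 16 leukocyte markers, 15 were in the files, 2 (ptprc, by the gate, and mpx) were at 0 in both libraries, and the list summed to 0.757 at Ctrl and 1.09 at 3 dpa, against 203 and 143 in the leukocyte gate. The 13 cardiomyocyte markers summed to 1.995 and 0.957. The 10 endothelial markers other than fabp11a summed to 0.203 and 0.125, and fabp11a, a fatty acid binding protein gene, went alone from 4.72 to 14.9. Erythrocyte markers summed to 0.0514 and 0.107, with alas2 at 0. Mural markers other than the potassium channel subunit gene kcne4 summed to 2.60 and 2.44, and kcne4 was 2.93-fold lower at 3 dpa (2.94-fold thinned, 2.84-fold at 3000 to 8000 UMIs). The 18 epithelial epicardial markers summed to 91.2 and 139, against 471 and 509 in the 176 and 530 cells of the epithelial gate. The 18 include podxl, cldnc, jam2b, ucmaa and slc29a1b. These were capped in members and had to sum to at least 10 per 10000 in the epithelial gate. That part of the contrast was therefore set by the gates. Of the 18, 15 were higher at 3 dpa by any amount. Of the 11 tested, which leave out the gate genes, 4 (krt4, tmem88b, aldh1a2 and tgm2b) were at least 2-fold higher, all 4 also at matched depth. Over all genes compared, 15.2% were at least 2-fold higher, and 7.27% at matched depth. Krt4, an epithelial keratin gene, was 4.57-fold higher and 2.58-fold at matched depth. With the epithelial sum of members held under 2 per 10000, all 126 named genes past 2-fold, those 4 among them, stayed past 2-fold the same way. The part of epithelial cells or their free RNA in those 4 ratios was otherwise not tested.

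Of 32520 listed genes, 3299 reached a mean level of 0.2 over both libraries and were compared, the genes of the gate left out. A gene under 0.2 in 1 library passed this filter through the other library, and could only be called higher there. That limit applies to the counts of every list below. With at least 2-fold as the call, 502 genes were higher at 3 dpa (15.2%) and 369 lower (11.2%), and the median log2 ratio was 0.09. Thinned to 1800 UMIs, 10.8% of the genes were higher and 9.73% lower. Over cells of 3000 to 8000 UMIs, 7.27% were higher and 8.52% lower. The calls that held on all 3 scales were 193 higher and 176 lower. Free RNA in the droplets was gauged by the leukocyte gate. Of the 502 higher genes 113, and of the 369 lower genes 200, had at least 3 times the gate's level in the library where they were higher. The share over all genes was not computed. A gene under that multiple is not thereby free RNA, since the gate's cells also hold their own RNA. The actin and motility gene arpc1b was at 7.99 and 9.61 there, against 0.112 and 0.613 in members (Ctrl and 3 dpa).

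**Figure D1:**
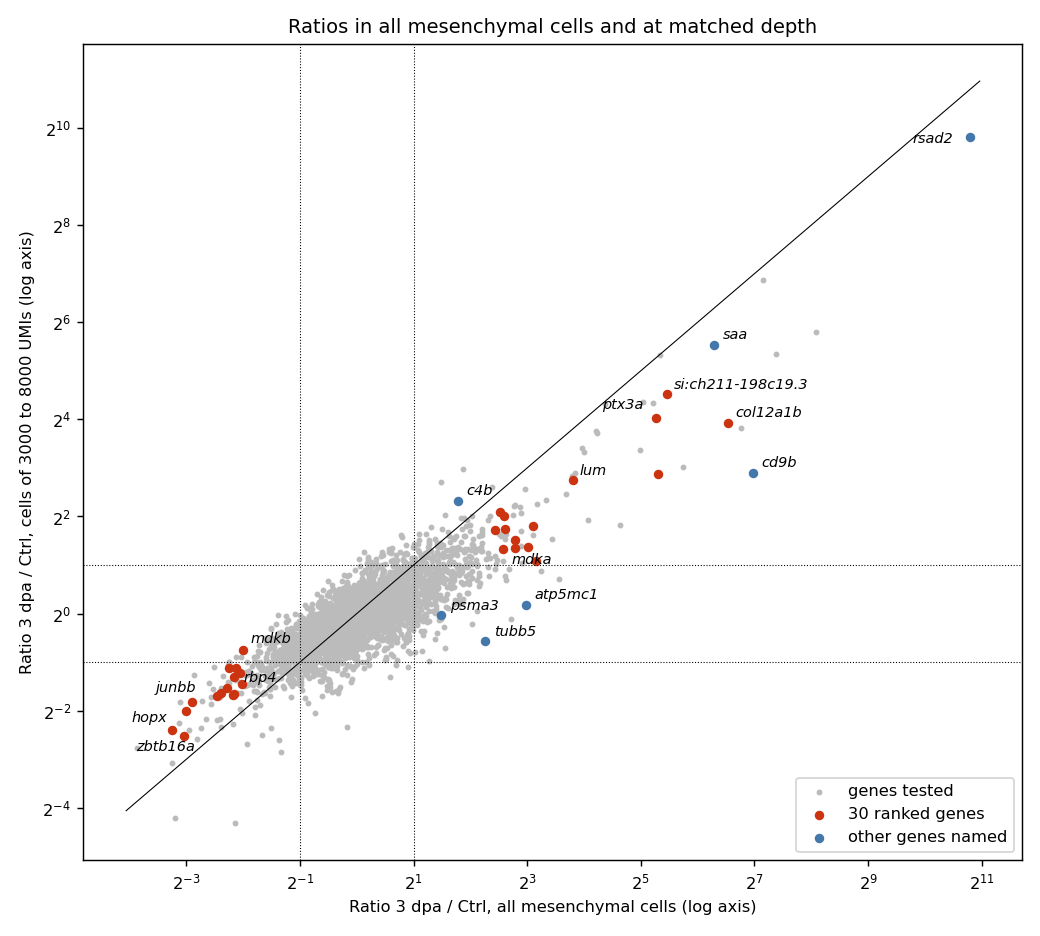
Ratio of the 3 dpa to the Ctrl level of each of 3299 genes, over all mesenchymal cells (x axis) and over cells of 3000 to 8000 UMIs (y axis), both on log axes. Red points are the 30 ranked genes, blue points other named genes, dotted lines mark 2-fold and the solid line equality. Genes such as atp5mc1 (7.85 and 1.14) and tubb5 (4.79 and 0.673) lie under the line, and within the 2-fold lines on the y axis.

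Genes ranked by the interval bound nearer to 1, among those called on all UMIs and thinned, at a level of at least 1 and at least 3 times the leukocyte gate, gave 15 genes on each side, from 48 and 69 that met these conditions. The 15 higher genes spanned 5.39- to 93.0-fold, and the 15 lower genes 4.0- to 9.51-fold. All 15 higher genes and 14 of the 15 lower ones were also past 2-fold at 3000 to 8000 UMIs, the exception being mdkb. The cells were also split into 3 subsets by the larger sum of 2 genes each (inhbb+fgl2b, ptger2b+slc16a3 and tnfsf12+dhrs3a). All 15 higher and 12 of the 15 lower genes were past 2-fold in each subset, the exceptions being ptger2b, slc16a3 and cremb. Over all called genes, 187 of the 502 higher and 122 of the 369 lower were past 2-fold in all 3 subsets. The 7 dpa level of all 30 lay between the Ctrl and 3 dpa levels. The 30 were chosen for a wide gap between those levels, and the share over all genes was not computed.

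**Figure D2:**
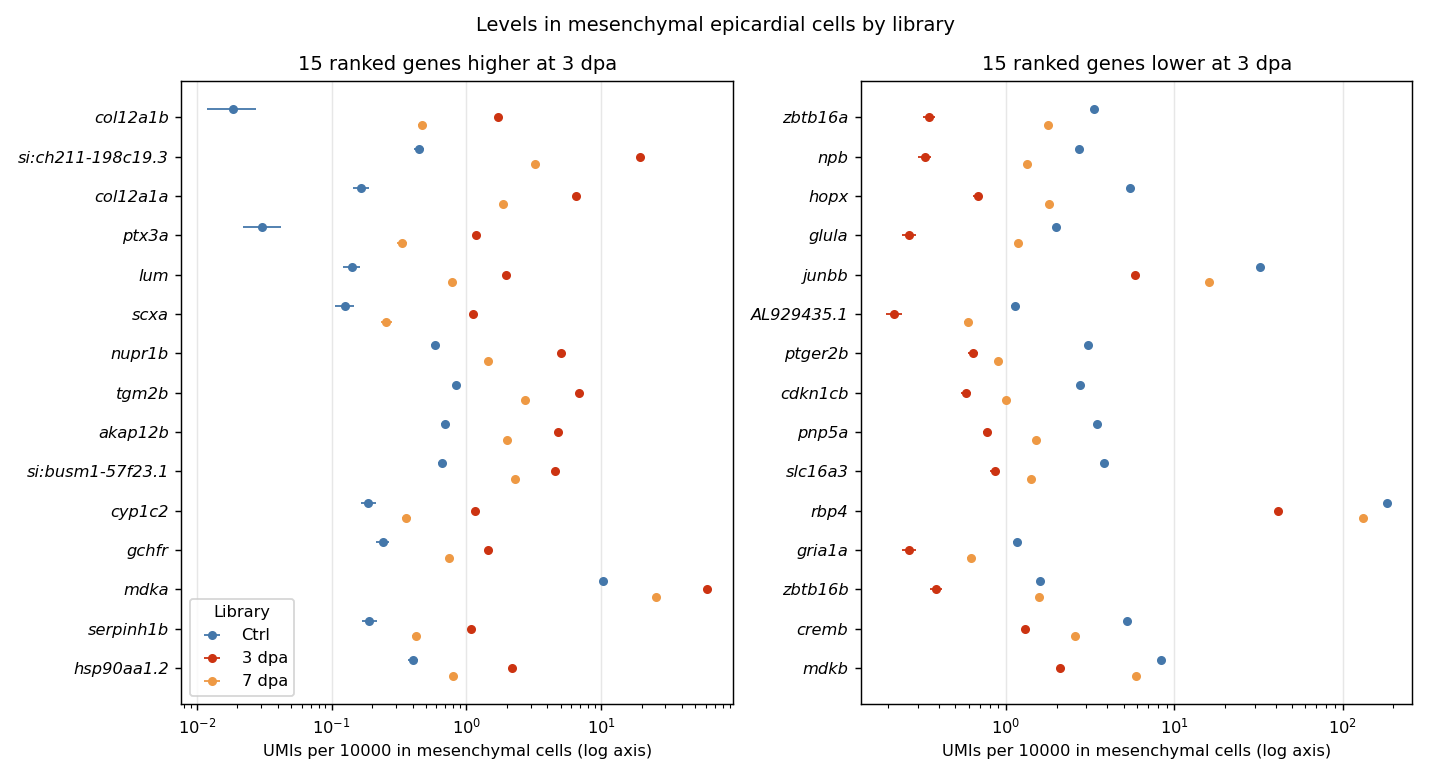
Level (UMIs per 10000, log axis) of the 15 higher and 15 lower ranked genes in the mesenchymal cells of each library, with 95% Poisson intervals, 1 library a point. The rbp4 points, in the order Ctrl, 7 dpa and 3 dpa, are 184, 133 and 41.2, and those of mdka 10.3, 25.4 and 61.5.

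Type XII collagen, which sits on the surface of collagen fibrils, has 2 genes in the zebrafish. The level of col12a1b was 0.0184 (24 UMIs), 1.71 and 0.468 at Ctrl, 3 dpa and 7 dpa, 93.0-fold higher at 3 dpa (62.4 to 145), 49.5-fold thinned and 15.3-fold at 3000 to 8000 UMIs. It was detected in 22 of 2520 Ctrl members (0.873%) and 425 of 1448 at 3 dpa (29.4%), and after thinning the 3 dpa share of the leukocyte gate with a UMI was 2.27%. Its paralog col12a1a went from 0.166 to 6.53, 39.4-fold (34.4 to 45.3), and 7.35-fold at 3000 to 8000 UMIs. Thinned, it was found in 2.46% of Ctrl members and 30.6% at 3 dpa, beside 6.45% and 6.82% of leukocyte gate cells. The Ctrl share was thus under that of the gate, which held only 62 and 88 thinned cells.

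Of 17 collagen genes tested, 4 were called higher (col12a1b, col12a1a, col11a1b and col8a1b) and none lower, against 15.2% and 11.2% of all genes, with a median log2 ratio of 0.50 (0.53 thinned). The levels of col12a1b, col12a1a and col11a1b were under 0.2 at Ctrl. These genes passed the level filter through their 3 dpa level and could not be called lower. The type XI gene col11a1b went from 0.0107 to 0.575 (53.5-fold, 31.7 to 98.3, from 14 UMIs at Ctrl, and 8.16-fold at matched depth). The type I genes col1a1a (14.6 and 21.4, ratio 1.46) and col1a2 (32.3 and 38.2, ratio 1.19) did not reach 2-fold, and both were higher still at 7 dpa, at 28.0 and 50.9 UMIs per 10000.

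Of 21 matricellular and fibril glycoprotein genes tested, 8 were called higher (15.2% of all genes were) and none lower, 7 of them also at matched depth, where 7.27% of all genes were higher. The list's median log2 ratio was 0.06, beside 0.09 over all genes, and 8 of the 21 had ratios below 1. Lumican (lum), a leucine-rich proteoglycan that spaces collagen fibrils, was at 0.141, 1.97 and 0.781 at Ctrl, 3 dpa and 7 dpa, 13.9-fold higher (12 to 16.3), 11.8-fold thinned and 6.69-fold at matched depth. It was at 0.455 and 0.564 in the epithelial gate of the same libraries, a ratio of 1.24. The first fibronectin gene, fn1a, went from 1.19 to 12.9 (10.9-fold, 10.3 to 11.4, and 2.90-fold at 3000 to 8000 UMIs), and its level in the leukocyte gate went from 0.123 to 6.60 as well. The second, fn1b, was at 21.9 and 66.4, a ratio of 3.03 that was 3.23 at 3000 to 8000 UMIs. Periostin (postnb), a matricellular protein of injured hearts, was at 2.30, 10.3 and 11.3 at Ctrl, 3 dpa and 7 dpa, 4.46-fold higher at 3 dpa. The elastic-fiber gene efemp2a was 5.43-fold higher, from 0.202 to 1.1, and 2.29-fold at matched depth.

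Of 31 genes for collagen folding, secretion and cross-linking, 12 were called higher (15.2% of all genes were) and none lower, with 7 higher at matched depth (7.27% of all genes). Of the 31, 8 had ratios below 1. The 2 genes of the collagen chaperone Hsp47 were both called, serpinh1b from 0.190 to 1.09 (5.71-fold, 5.0 to 6.56) and serpinh1a from 0.142 to 0.656 (4.62-fold, 3.06-fold at matched depth). The transglutaminase gene tgm2b, whose product cross-links proteins, went from 0.839 to 6.82, 8.13-fold, and 2.60-fold at 3000 to 8000 UMIs. The epithelial gate held more of it in both libraries, at 10.1 and 15.9 UMIs per 10000. The procollagen enhancer gene pcolce2b was 3.79-fold higher on all UMIs and not called at matched depth (1.55-fold). Among 14 basement membrane genes none was called on any of the 3 scales. The type IV collagen gene col4a1 was at 10.4 and 5.59, a ratio of 0.536 that came to 0.912 at 3000 to 8000 UMIs.

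Other ranked higher genes covered several roles, and with si:busm1-57f23.1 (6.91-fold, 2.57-fold at matched depth) they complete the 15. Scleraxis (scxa), a transcription factor gene of tendon progenitors, went from 0.125 to 1.12 (8.96-fold, 7.62 to 10.6, and 2.11-fold at 3000 to 8000 UMIs). The stress-response gene nupr1b was at 0.584, 5.04 and 1.45 at Ctrl, 3 dpa and 7 dpa, 8.62-fold higher at 3 dpa and 3.51-fold at matched depth. The scaffold protein gene akap12b, which anchors protein kinase A, went from 0.692 to 4.78 (6.91-fold, 2.85-fold at matched depth). The chaperone gene hsp90aa1.2 was 5.39-fold higher (3.31-fold at matched depth) and the GTP cyclohydrolase regulator gene gchfr 6.01-fold (4.0-fold). The cytochrome gene cyp1c2 was 6.14-fold higher (3.33-fold at matched depth). The gene si:ch211-198c19.3, which has no assigned name, was detected thinned in 4.46% at Ctrl and 68.4% at 3 dpa (leukocyte gate 4.84% and 31.8%), with levels of 0.446 and 19.5 (43.8-fold, 40.4 to 47.6, and 22.9-fold at 3000 to 8000 UMIs). The long pentraxin gene ptx3a, which encodes a secreted pattern-recognition protein, went from 0.0307 to 1.18 and was at 0.334 at 7 dpa. Its 38.4-fold difference (28.1 to 53.9) was 41.1-fold thinned and 16.3-fold at matched depth. The cells with a ptx3a UMI were 22 of 2520 (0.873%) and 320 of 1448 (22.1%), and thinned 0.246% and 7.53%. In the paper, ptx3a and col12a1b mark a short-lived progenitor cluster of 3 dpa that lies apart from its hapln1a and pdgfra clusters. The gate used here did not shut out cells of that cluster. The paper also names fn1a, serpinh1a, hsp90b1, atp5mc1 and psmb1 among that cluster's markers. The part of such cells in the levels of these genes, and of other genes here, was not tested. With members that had a UMI of ptx3a or col12a1b left out, 220 genes were higher and 288 lower, beside 502 and 369 with them.

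Secreted growth factors went in both directions. Midkine is a heparin-binding growth factor with 2 zebrafish genes, and they moved oppositely. The level of mdka was 10.3, 61.5 and 25.4 at Ctrl, 3 dpa and 7 dpa, 5.95-fold higher (5.85 to 6.06), 4.41-fold thinned and 2.5-fold at 3000 to 8000 UMIs. The level of mdkb was 8.40, 2.1 and 5.95 in that order, 4.0-fold lower at 3 dpa (3.84 to 4.16), 2.42-fold thinned and 1.68-fold at 3000 to 8000 UMIs. In the epithelial gate mdka went from 5.56 to 67.9 and mdkb from 5.97 to 0.259. Of 15 growth factor and mitogen genes tested, 3 were called higher (15.2% of all genes were) and 5 lower (11.2%), and at matched depth 1 and 2 (7.27% and 8.52%). Neuregulin 1 (nrg1), a mitogen for cardiomyocytes, was at 0.418 and 0.115, 3.63-fold lower (3.06 to 4.33) and 2.38-fold at 3000 to 8000 UMIs, and nrg2a at 0.797 and 0.238, 3.36-fold lower, and just short of the call at matched depth (1.98-fold). The heparan sulfate proteoglycan gene sdc4 was at 60.2 and 18, 3.35-fold lower and 2.08-fold at 3000 to 8000 UMIs.

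The angiogenic factor gene vegfaa was at 13.6, 4.12 and 6.00 at Ctrl, 3 dpa and 7 dpa, 3.30-fold lower (3.21 to 3.40), 3.03-fold thinned and 2.58-fold at 3000 to 8000 UMIs. It was the only one of 12 VEGF, PDGF and angiopoietin genes called lower (11.2% of all genes were), and 3 were called higher (15.2%). The PDGF receptor-like gene pdgfrl went from 0.764 to 2.17, 2.84-fold, and 3.33-fold at 3000 to 8000 UMIs. The ratio of pdgfra was 1.52 on all UMIs (1.42 to 1.63), 1.83 thinned and 2.40 at 3000 to 8000 UMIs, and it was detected in 16.1% of thinned Ctrl members and 27.2% at 3 dpa.

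The level of the lineage transcription factor gene tcf21 was 80.9, 44.2 and 75.8 at Ctrl, 3 dpa and 7 dpa, a ratio of 0.547 (0.541 to 0.552), short of 2-fold, and 0.699 at 3000 to 8000 UMIs. It was detected thinned in 99.5% and 98.7% of members. All cells had been sorted for the tcf21 reporter, so cells without it were not sampled. Over all genes, 15.2% were called higher and 11.2% lower. Of 11 lineage factor genes tested, 1 was called higher (meis1a, 0.391 and 0.788) and none lower, and at matched depth nfatc1 (ratio 0.478) was called lower as well. The T-box gene tbx18 was at 1.30 and 1.09. Among 12 genes of epithelial-mesenchymal transition, the cadherin genes cdh2 (1.40 and 3.38, 2.43-fold) and cdh11 were called higher on all UMIs but not at matched depth (1.59- and 1.75-fold), and the forkhead gene foxc1b was lower, from 1.07 to 0.338 (3.18-fold, 2.87 to 3.52, and 2.16-fold at 3000 to 8000 UMIs). The bHLH gene twist1a was at 2.41 and 1.44, 1.67-fold lower.

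The retinol-binding protein gene rbp4, whose product carries retinol out of cells, was at 184, 41.2 and 133 at Ctrl, 3 dpa and 7 dpa, 4.47-fold lower (4.43 to 4.51), 3.24-fold thinned and 2.47-fold at 3000 to 8000 UMIs. In the epithelial gate it went from 159 to 14.9, a ratio of 0.0937. The retinaldehyde dehydrogenase gene aldh1a2, which makes retinoic acid and is a classic gene of activated epicardium, went from 0.112 (146 UMIs) to 3.57 (5438 UMIs) and was at 0.892 at 7 dpa. The difference was 31.9-fold (27.0 to 37.8), 21.8-fold thinned and 10.3-fold at 3000 to 8000 UMIs. Thinned, it was found in 1.55% of Ctrl members and 23.9% at 3 dpa, beside 6.45% and 9.09% of leukocyte gate cells, and its epithelial gate level was 9.13 and 14.9. The retinol uptake receptor gene stra6, named after its value was seen, had 4 UMIs at Ctrl and 667 at 3 dpa, a ratio of 143 (55.4 to 525), and 116 at 3000 to 8000 UMIs. In the epithelial gate it was at 0 and 0.00455. In all, 4 of 15 retinoid genes were called higher (15.2% of all genes were) and 1, rbp4, lower (11.2%). At matched depth 3 were higher and 2 lower, rbp4 and the retinol dehydrogenase gene rdh10b (ratio 0.385). The others higher were the retinoic acid binding protein gene crabp2b (0.108 and 0.477, 4.41-fold, 2.53-fold at matched depth) and cyp26b1 (0.183 and 0.45, 2.46-fold, 1.79-fold at matched depth), whose enzyme breaks retinoic acid down.

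Immediate early genes, the transcription factors and feedback genes that stimuli and cell dissociation induce within minutes, were mostly lower at 3 dpa. Of 28 tested, 15 were called lower (11.2% of all genes were) and 1, klf2a at 1.03 and 2.06, higher. The median log2 ratio was -1.08 beside 0.09 over all genes (thinned -0.77, at 3000 to 8000 UMIs -0.41). After thinning 11 were called lower, and at 3000 to 8000 UMIs 3 were (junbb, egr3 and nr4a3), beside 8.52% of all genes. The AP-1 gene fosab was at 84.2 and 24.8, 3.39-fold lower (3.35 to 3.43), and fosb at 45.2 and 16.6, 2.73-fold lower. Their ratios at 3000 to 8000 UMIs were 0.545 and 0.619, short of 2-fold. The AP-1 gene junbb was at 32.2, 5.85 and 16 at Ctrl, 3 dpa and 7 dpa, 5.51-fold lower (5.38 to 5.64), 4.41-fold thinned and 3.24-fold at 3000 to 8000 UMIs. The growth response gene egr3 was at 1.76 and 0.781 (2.26-fold lower, 2.68-fold at 3000 to 8000 UMIs), and the orphan nuclear receptor gene nr4a3 at 2.38 and 1.14. In every range of depth the summed list was lower at 3 dpa, with ratios of 0.737 under 3000 UMIs, 0.722 at 3000 to 8000, 0.550 to 16000 and 0.367 above. Libraries were dissociated separately, and the part of dissociation in these levels was not tested.

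Of 13 tested genes of FGF receptors and ERK feedback, 3 were called lower (11.2% of all genes were) and none higher. At matched depth 1 of the 13 (dusp5) was lower, a share under the 8.52% of all genes. The ERK phosphatase gene dusp5 was at 22.1 and 7.52, 2.94-fold lower (2.88 to 3.01) and 2.62-fold at 3000 to 8000 UMIs. The second, dusp6, was 2.28-fold lower (1.63-fold at matched depth). The pleckstrin-domain gene phlda2 was at 31.3 and 11.2, 2.80-fold lower, and 1.58-fold at 3000 to 8000 UMIs. The Sprouty gene spry4 was at 6.49 and 3.46, a ratio of 0.533 that did not pass and was 0.881 at matched depth.

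Genes induced by glucocorticoids or tied to quiescence were also mostly lower. Of 21 tested, 12 were called lower (11.2% of all genes were) and none higher. The median log2 ratio was -1.30 (-0.96 thinned, -0.57 at 3000 to 8000 UMIs, where 6 were called lower, beside 8.52% of all genes). The zinc finger repressor gene zbtb16a was at 3.32, 0.349 and 1.77 at Ctrl, 3 dpa and 7 dpa, 9.51-fold lower (8.69 to 10.4), 5.38-fold thinned and 5.24-fold at 3000 to 8000 UMIs, and was detected thinned in 38.9% and 9.52% of members beside 8.06% and 6.82% of the leukocyte gate. Its paralog zbtb16b was 4.14-fold lower (2.32-fold at matched depth). Glutamine synthetase (glula) was at 1.97 and 0.266, 7.42-fold lower (3.52-fold at matched depth). The cyclin-dependent kinase inhibitor gene cdkn1cb, which holds cells out of the cycle, was at 2.75 and 0.578, 4.76-fold lower (4.42 to 5.13) and 2.16-fold at 3000 to 8000 UMIs. The glucocorticoid receptor chaperone gene fkbp5 was at 2.72, 0.931 and 3.86 at Ctrl, 3 dpa and 7 dpa, and klf9 (1.86-fold lower at matched depth) at 1.21, 0.294 and 1.30, so that both were back at or above the Ctrl level at 7 dpa. The list's median log2 ratio was -1.58 in the epithelial gate. Of 12 genes of cycle inhibitors and D cyclins, 4 were called lower (11.2% of all genes were).

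The remaining ranked lower genes were npb, hopx, AL929435.1, ptger2b, pnp5a, slc16a3, gria1a and cremb, a gene of cAMP-responsive transcription that was 4.04-fold lower. The homeodomain-only gene hopx, a cofactor without DNA binding, was at 5.46, 0.681 and 1.81 at Ctrl, 3 dpa and 7 dpa, 8.02-fold lower and 4.01-fold at matched depth. The prostaglandin E receptor gene ptger2b was at 3.09 and 0.638 (4.85-fold lower, 2.90-fold at matched depth) and the lactate exporter gene slc16a3 at 3.84 and 0.856 (4.49-fold). Both genes also define 1 of the 3 subsets, whose share went from 40.0% (38.0 to 41.9) of members at Ctrl to 23.3% (21.2 to 25.6) at 3 dpa, a share that the counts of these genes set, since cells are assigned by them. The genes AL929435.1 and gria1a were 5.21- and 4.36-fold lower, and 3.10- and 2.17-fold at matched depth. The level of the neuropeptide gene npb rested on few cells. It was detected in 162 Ctrl members (6.43%) and 48 at 3 dpa (3.31%), and 97.3% of its Ctrl UMIs were in the 102 cells that had at least 5. Of 22 glycolysis and lactate genes, 6 were called lower (11.2% of all genes were) and none higher, and 8 were lower at 3000 to 8000 UMIs (8.52%). The regulator genes hif1al (5.94-fold, 3.65-fold at matched depth) and pfkfb3 (3.73-fold, 2.27-fold at matched depth) were among them.

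The subset marked by tnfsf12+dhrs3a took the larger share at 3 dpa, 12.5% (11.2 to 13.8) at Ctrl and 31.6% (29.2 to 34) at 3 dpa, and that of inhbb+fgl2b was 32.3% (30.5 to 34.2) and 30.3% (28.0 to 32.8). The subset genes differ between the libraries themselves (dhrs3a had a ratio of 1.82), so the shares are not free of the levels. Of the named genes that were lower over all members, nppb (1.91), gfpt2 (1.54), fstl3 (1.47), tgif1 (1.41), ugdh (1.34) and dusp5 (1.21) had ratios above 1 within the tnfsf12+dhrs3a subset. The natriuretic peptide gene nppb had 6 UMIs in that subset at Ctrl, and over all members it was at 0.511 and 0.116, 4.40-fold lower and 19.9-fold at matched depth. Its level rested on few cells. It was detected in 44 Ctrl members (1.75%) and 30 at 3 dpa (2.07%), and 95.05% of its Ctrl UMIs were in 21 cells with at least 5. The gene ptger2b also had a ratio above 1 in that subset, and its counts decide which cells enter the subset. Rbp4 and junbb were lower in each subset, with ratios of 0.328, 0.177 and 0.168 for rbp4 and 0.226, 0.148 and 0.179 for junbb in the order inhbb+fgl2b, ptger2b+slc16a3 and tnfsf12+dhrs3a.

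The genes of a pair of enzymes that make hyaluronan precursors, ugdh (6.34 and 2.21, 2.87-fold lower) and gfpt2 (1.54 and 0.536, 2.87-fold lower), were both 2.92-fold lower at 3000 to 8000 UMIs, and the synthase gene has1 was at 0.648 and 1.28, a ratio of 1.97 that was 1.54 thinned and 1.27 at matched depth. Over all genes, 11.2% were called lower on all UMIs, 9.73% thinned and 8.52% at matched depth. Of 13 hyaluronan matrix genes 3 were called lower and none higher on each of the 3 scales. On all UMIs the other was the synthase gene has2 (0.386 and 0.172, 2.25-fold lower, 1.74-fold at matched depth). Of 19 TGF-beta and activin genes, 4 were called higher (15.2% of all genes were) and 4 lower (11.2%). The antagonist gene fstl3 (2.66-fold) and the corepressor genes skilb (3.01-fold) and tgif1 (2.17-fold) were lower, and at matched depth tgif1 alone of these was (fstl3 1.76-fold, skilb 1.85-fold, tgif1 2.31-fold).

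Several antiviral interferon-stimulated genes were near 0 at Ctrl. Of 15 interferon genes tested, 8 were called higher (15.2% of all genes were) and none lower. The median log2 ratio was 1.42 (1.03 thinned, 0.80 at 3000 to 8000 UMIs). Genes near 0 at Ctrl, such as rsad2 and mxb, passed the level filter through their 3 dpa level and could only be called higher. All 43 genes of the list in the files, tested or not, summed to 23.3 at Ctrl and 30.9 at 3 dpa. Viperin (rsad2), which makes an antiviral nucleotide, had 1 UMI in the 2520 Ctrl members and 2076 in the 1448 at 3 dpa, a level of 1.36 and a ratio of 1776 (318 to 70164) that was 894 at matched depth. These UMIs came from 155 cells (10.7%), and 93.9% of them from 81 cells with at least 5. The ubiquitin-like gene isg15 went from 0.122 to 2.29 (18.8-fold, 16 to 22.2, and 13.2-fold at 3000 to 8000 UMIs), found in 81 of 2520 and 362 of 1448 members. The GTPase gene mxb had 3 UMIs at Ctrl and 948 at 3 dpa, a ratio of 270.3 (92.2 to 1313) that was 55.8 at matched depth. The immunoproteasome subunit gene psmb8a was 6.19-fold higher, from 0.121 to 0.751, and 3.12-fold at matched depth. At 7 dpa rsad2 was at 0.170, isg15 at 0.281 and mxb at 0.0740. In the leukocyte gate rsad2 went from 0 to 1.17 and isg15 from 0.102 to 4.77.

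Complement genes had a larger median difference at matched depth than on all UMIs. Of 11 complement and clusterin genes tested, 5 were called higher and 1 lower on all UMIs (15.2% and 11.2% of all genes). At 3000 to 8000 UMIs 7 and 2 were (7.27% and 8.52%), with a median log2 ratio of 1.07 (0.80 on all UMIs). The complement component gene c4b was at 1.40, 4.80 and 6.06 at Ctrl, 3 dpa and 7 dpa, 3.43-fold higher (3.26 to 3.61), 5.23-fold thinned and 5.01-fold at 3000 to 8000 UMIs, but in cells of at least 16000 UMIs it was at 7.47 and 3.27. The terminal component gene c7a was 2.34-fold higher and the lectin gene colec12 3.26-fold (2.1-fold at matched depth). The chaperone gene clu, which restrains complement, was at 8.53, 17.2 and 33.7 at Ctrl, 3 dpa and 7 dpa, 2.01-fold higher at 3 dpa and 1.84-fold at matched depth. Complement factor D (cfd) was lower, from 2.30 to 0.386 (5.95-fold, 5.44 to 6.51, and 3.31-fold at matched depth). In the epithelial gate c4b had a ratio of 0.656.

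Among 31 inflammatory genes 8 were called higher (15.2% of all genes were) and 2 lower (11.2%). The galectin gene lgals2a went from 1.80 to 16.3 (9.05-fold, 4.80-fold at matched depth), with 9.77 and 22.3 in the leukocyte gate. Serum amyloid A (saa), an acute-phase protein, had 13 UMIs at Ctrl and 1186 at 3 dpa, of which 542 came from 1 cell, and 96 of 1448 members had any. Its ratio of 78.0 (45.5 to 147) was 46.4 at matched depth. The level of saa was 0.779 in members at 3 dpa, and 0.0205 and 1.155 in the leukocyte gate at Ctrl and 3 dpa. The cytokine gene mif was 4.86-fold higher and 2.18-fold at 3000 to 8000 UMIs. Among 7 chemokine genes, ccl25b (3.18 and 6.69, 2.1-fold) and ccl19a.1 (0.149 and 0.545, 3.66-fold, 7.93-fold at matched depth) were called higher, and cxcl18b (107 and 43.7, 2.44-fold, 1.75-fold at matched depth) was one of 3 called lower. In the leukocyte gate ccl19a.1 was at 0 and 1.51.

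Genes of cell adhesion and the cell surface included low-level genes with large ratios. The tetraspanin gene cd9b went from 0.00768 (10 UMIs) to 0.961, a ratio of 125 (67.9 to 262) that was 7.45 at 3000 to 8000 UMIs, and 209 of 1448 members at 3 dpa had a UMI. The leukocyte gate held more cd9b in both libraries, at 0.614 and 2.51, and the part of free RNA was not tested. The caveolar coat gene cavin1b went from 0.0376 to 0.932 (24.8-fold, and 3.52-fold at 3000 to 8000 UMIs), and its epithelial gate level was 3.2 and 9.96. Thy1, a fibroblast surface protein gene (thy1), was at 1.78, 5.27 and 1.83 at Ctrl, 3 dpa and 7 dpa. In all, 4 of 15 adhesion genes were called higher (15.2% of all genes were) and 1, itga5, lower (11.2%).

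Of 19 genes of matrix-degrading enzymes and their inhibitors, 5 were called higher (15.2% of all genes were) and 2 lower (11.2%). The collagen-cutting cathepsin gene ctsk went from 0.538 to 2.22 (4.12-fold, 3.80 to 4.47, and 2.89-fold at 3000 to 8000 UMIs). The sheddase gene adam10a was at 1.56 and 3.79. The versican-cutting protease gene adamts9, named after its value was seen, was at 0.365 and 0.112, 3.27-fold lower and 3.71-fold at 3000 to 8000 UMIs.

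Redox genes were called higher for 10 of 32 and lower for 1 on all UMIs, and for 3 and 1 at 3000 to 8000 UMIs. Over all genes the shares were 15.2% and 11.2% on all UMIs, and 7.27% and 8.52% in that range. The thioredoxin gene txn was at 2.32 and 9.22 (3.98-fold), and the glutathione transferase gene gstm.3 at 5.34 and 26.6 (4.99-fold), both under 2-fold at 3000 to 8000 UMIs (1.76 and 1.95). The peroxiredoxin gene prdx1, also named after its value was seen, had 5 UMIs at Ctrl and 636 at 3 dpa, a ratio of 109 (46.4 to 336) that was 14.2 at matched depth. Heat shock genes were called higher for 5 of 18 and for 4 at 3000 to 8000 UMIs, among them hsp70.3 (2.27 and 5.40, 2.38-fold) and hsp70l (0.444 and 0.948). Of 50 actin and motility genes, 14 were called higher on all UMIs, and 3 at 3000 to 8000 UMIs, where the median log2 ratio was -0.02 (0.54 on all UMIs).

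A list of genes with which the study described a 3 dpa cluster had 12 of 15 called higher (median log2 ratio 2.07) and 7 at 3000 to 8000 UMIs (0.58). That list was chosen on these samples, so its direction is not independent evidence. Of 25 genes with which the study described mesenchymal subsets, 1 was called higher (15.2% of all genes were) and 8 lower (11.2%).

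Among genes of general cell machinery, those of the proteasome and oxidative phosphorylation differed mainly in deep cells. Over all genes, 15.2% were called higher and 11.2% lower on all UMIs, and 7.27% and 8.52% at 3000 to 8000 UMIs. Of 33 proteasome subunit genes, which encode the particle that degrades tagged proteins, 22 were called higher and none lower (median log2 ratio 1.13), but 7 were called after thinning (0.73) and 2 at 3000 to 8000 UMIs (0.07). The summed level was 11.8 and 13.4 at 3000 to 8000 UMIs and 9.81 and 38.7 at 16000 and over. Of 80 nuclear-coded genes of oxidative phosphorylation, 37 were called higher on all UMIs, 15 thinned and 1 at 3000 to 8000 UMIs, and the ATP synthase gene atp5mc1 went from 0.385 to 3.02 overall and from 0.371 to 0.422 in that range. Cell cycle genes were few, with 2 of 7 tested called higher on all UMIs (hmgb2a, 0.913 at matched depth, and tubb2b, 1.33), none thinned, and 1 lower at 3000 to 8000 UMIs. Cells with a UMI of cdk1, top2a, ccna2, ccnb1 or tpx2 were 5 of 2520 (0.198%, 0.0645 to 0.462) at Ctrl and 64 of 1448 (4.42%, 3.42 to 5.61) at 3 dpa, and these 64 had a median of 20406 UMIs, beside 8014 over all members at 3 dpa. Of 30 endoplasmic reticulum chaperone genes 15 were called higher and 3 lower on all UMIs, and 4 and 1 at 3000 to 8000 UMIs. The chaperone gene hsp90b1 (0.513 and 2.16) was 2.55-fold higher in that range. Of 82 cytosolic ribosomal protein genes 2 were called higher and 1 lower. Of 48 translation factor genes 1 was called higher and 4 lower on all UMIs, and 0 and 5 at 3000 to 8000 UMIs.

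**Figure D3:**
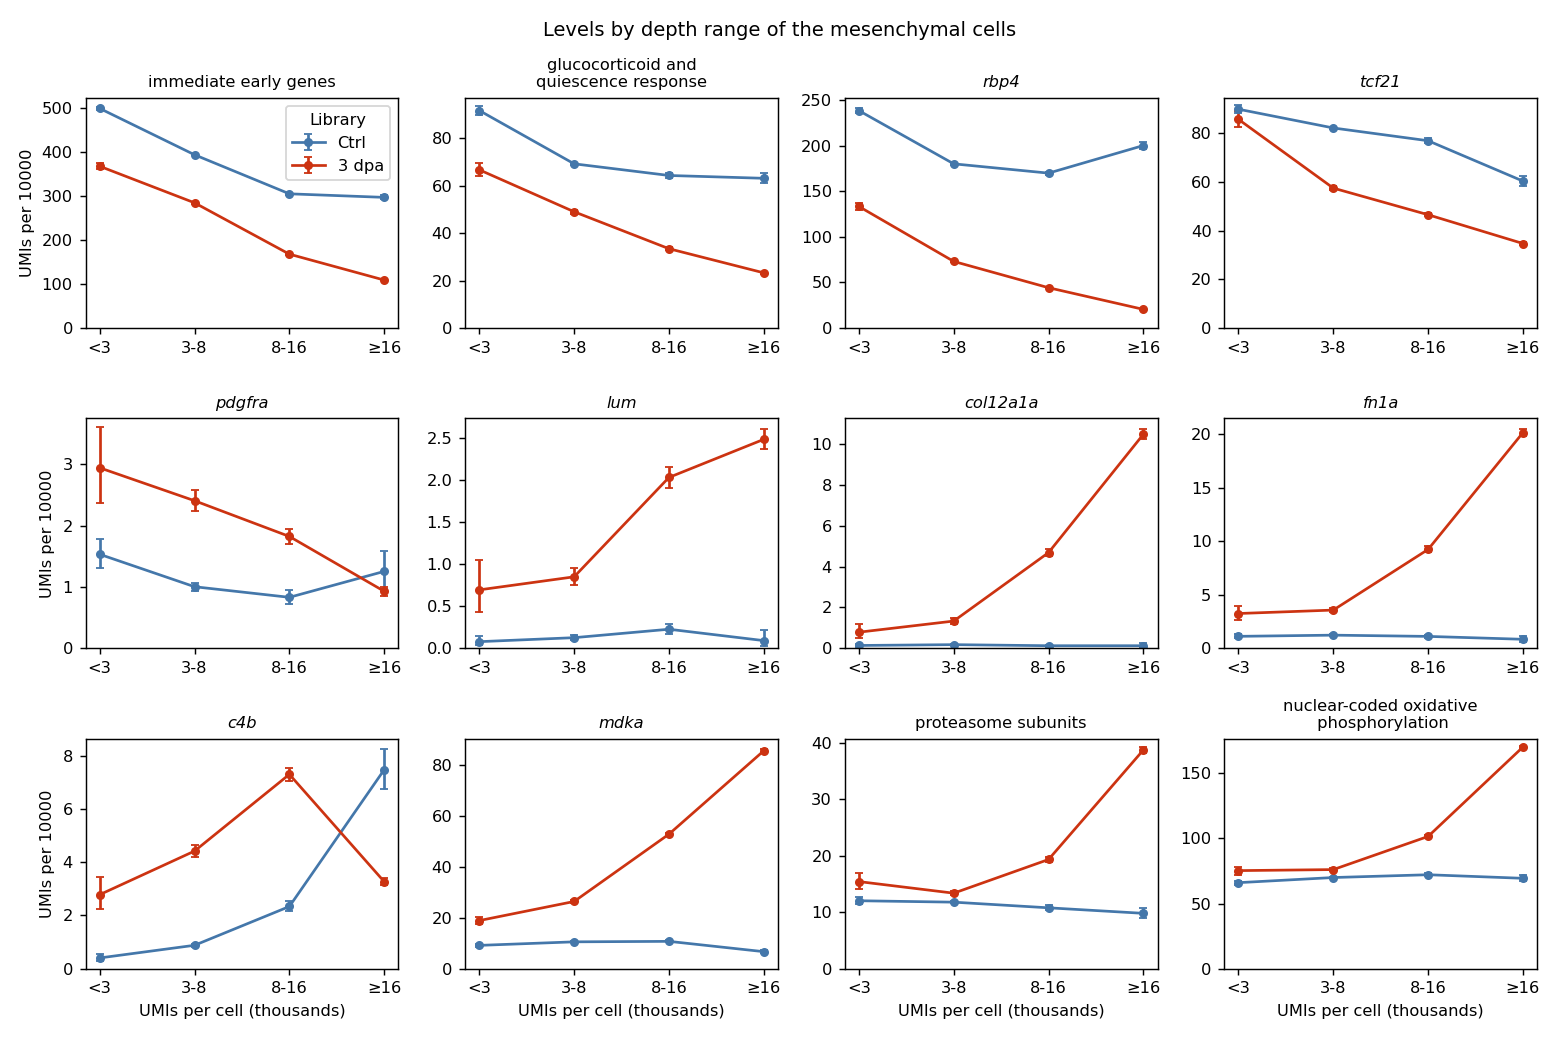
Level (UMIs per 10000, linear axis from 0) of 12 genes or summed lists in Ctrl and 3 dpa mesenchymal cells, split by UMIs per cell, with 95% Poisson intervals and 1 library a line. Proteasome levels are close in cells of 3000 to 8000 UMIs (11.8 and 13.4) and apart at 16000 and over (9.81 and 38.7), while rbp4 is lower at 3 dpa in every range.

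The matrix genes col12a1a and fn1a and the growth factor gene mdka were higher still in the deepest 3 dpa cells. Matrix lists did not all go this way between 3 dpa members of 3000 to 8000 UMIs and those of 16000 and over. The matricellular and fibril glycoprotein genes summed to 182.5 and 149.7 and basement membrane genes to 54.5 and 23.55. The fibrillar and associated collagens summed to 153.4 and 161.5. In members of at least 16000 UMIs, col12a1a was at 10.5 (Ctrl 0.129), fn1a at 20.2 (Ctrl 0.849) and mdka at 85.5 (Ctrl 6.71), against 1.33, 3.58 and 26.4 at 3 dpa in members of 3000 to 8000 UMIs. In the same deep cells hapln1a was at 5.73, pdgfra at 0.930 and tcf21 at 34.7, against 23.3, 2.40 and 57.5 in those of 3000 to 8000 UMIs. With the members that had a UMI of ptx3a or col12a1b left out of both libraries, 220 genes were higher and 288 lower. The 26 Ctrl cells of that depth are few, and depth and state cannot be told apart in them.

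**Figure D4:**
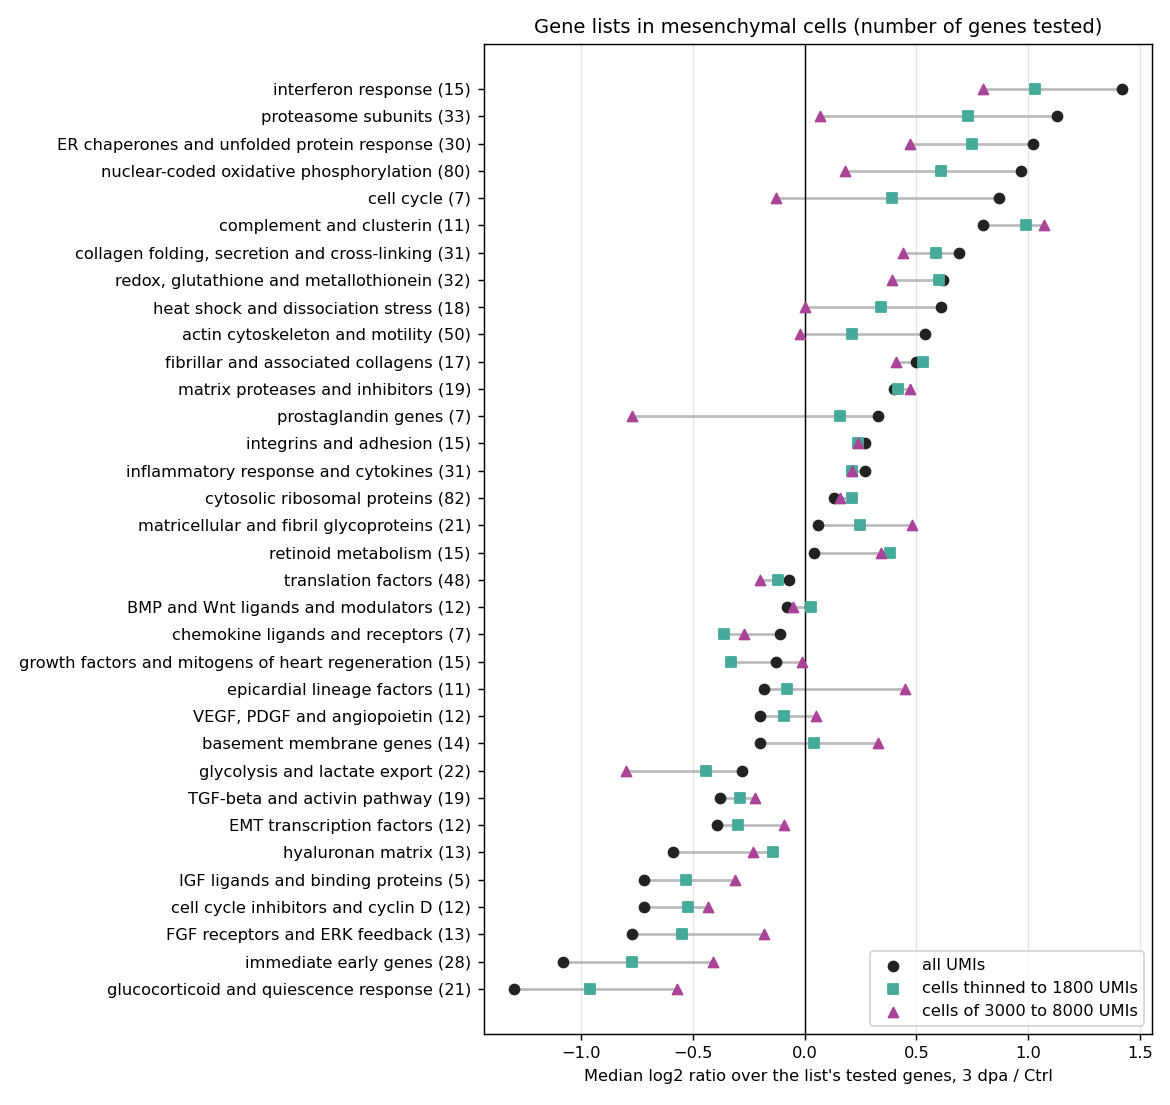
Median log2 ratio of 3 dpa to Ctrl over the tested genes of each list (number in brackets), from all UMIs (circles), cells thinned to 1800 UMIs (squares) and cells of 3000 to 8000 UMIs (triangles). Glucocorticoid and quiescence genes lie below 0 on all 3 scales (-1.30, -0.96 and -0.57), complement genes above (0.80, 0.99 and 1.07), and proteasome genes near 0 only in the depth range (1.13, 0.73 and 0.07).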

How the data were processed

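Per the submitters' processing notes and the study's methods, the authors aligned reads to GRCz10 with Cell Ranger 3.0.2 and deposited UMI counts per gene and droplet, before their filters and normalization. These are raw counts, from 5284 (Ctrl), 4390 (3 dpa) and 7002 (7 dpa) droplets. The members and gene lists were chosen with earlier results of these data known. Counts were summed over the members of a library and divided by their total. Ratios have exact conditional 95% intervals, levels exact Poisson and shares Clopper-Pearson intervals. UMIs limit repeats of a molecule, and intervals cover counting error only.

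Named genes were the 15 ranked each way (as described above), up to 4 tested genes of each of 43 lists with the largest absolute log2 ratio and a level of at least 0.5 in the higher library, the gate genes and the markers. Further list genes (such as fn1b, col1a1a, klf9, fkbp5, stra6, clu, c7a, cdh11) were named after their values were seen. Doublets were not called here, and an alternative leaves out the deepest 5% of members per library. No test was used, since cells are not replicates. Counts simulated for 3299 genes with counting error only checked the arithmetic of the call. All 200 genes changed 2.5-fold or 4-fold either way were called and none of 3099 unchanged ones. With such small counting error that outcome was set in advance. Depth, spread over cells and variation between libraries were not simulated, so the rate of false calls is not known. Of 26 alternatives, 5 were added after seeing the data. Analysis used Python 3.11.15, numpy 2.4.6, scipy 1.17.1, pandas 2.3.3 and matplotlib 3.10.9. No genome was used, so no coordinates or sequences are given. The values of 1 list gene are not reported here.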

Additional observations from a re-analysis of the deposited data

Results flagged for a closer look

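Hsp70.1, gfpt2, ccl25b and phlda2 were at least 2-fold apart in opposite directions in the mesenchymal and the epithelial gate of the same libraries, chosen among named genes with at least 50 UMIs in the epithelial gate. The differences between the gates were not tested. The ratio of 3 dpa to Ctrl was 0.349 in the mesenchymal and 2.2 in the epithelial gate for gfpt2, 0.357 and 2.42 for phlda2, 2.1 and 0.281 for ccl25b, and 2.0 and 0.379 for the heat shock gene hsp70.1. The epithelial levels of gfpt2 (0.0455 and 0.100) and ccl25b (0.360 and 0.101) were low beside the mesenchymal ones. The interval of the epithelial gfpt2 ratio was 1.14 to 4.74. At matched depth phlda2 was no longer 2-fold lower in the mesenchymal gate. In that gate hsp70.1 was 1.71-fold higher thinned and 2.18-fold at matched depth.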

How the results depend on the processing

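Of 26 alternatives, 21 were planned and 5 (a hapln1a limit of 5 per 10000 and 4 ranges of depth) were chosen after seeing the data. Against 502 genes higher, 369 lower and a median log2 ratio of 0.09, the counts of higher genes and medians were 326 and 0.02 with cells thinned to 1800 UMIs, 332 and 0.03 thinned to 3000, 253 and -0.02 with the gate applied after thinning, 301 and 0.02 as a mean over cells, 202 and -0.03 in cells of 3000 to 8000 UMIs, 220 and -0.03 without ptx3a or col12a1b cells, 196 and -0.06 in the inhbb+fgl2b subset, 326 and 0.02 with hapln1a at 5 per 10000, 272 and -0.01 under 16000 UMIs, and 998 and 0.32 from 16000. These alternatives chose their own genes by the same level filter. Leaving ribosomal and mitochondrial UMIs out of the total gave 758 higher, 392 lower and a median of 0.20, and centring on the median (0.00) gave 429 and 427. Without a level filter 5843 genes were higher and 3497 lower (0.17), and at a mean level of at least 1 there were 128 and 130 (0.03). Counts within 1.5 times those on all UMIs, with a median that moved, were 380 higher and 367 lower (0.03) without the deepest 5% of cells, 723 and 270 (0.26) in the tnfsf12+dhrs3a subset and 370 and 282 (0.03) in cells of 8000 to 16000 UMIs. The causes were not tested.

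Of 126 named genes past 2-fold, 122 kept their direction in cells of 3000 to 8000 UMIs, and 88 were still past 2-fold there. The exceptions in direction, as log2 ratios, were eif5a2 -0.06, hmgb2a -0.13, tubb5 -0.57 and psma3 -0.03. Under 3000 UMIs 76 of the 126 were still past 2-fold the same way, and 96 of 124 without ptx3a or col12a1b cells. In the tnfsf12+dhrs3a subset 7 reversed, ugdh (0.43), ptger2b (1.76), nppb (0.93), gfpt2 (0.63), tgif1 (0.50), fstl3 (0.55) and dusp5 (0.28). Under 3000 UMIs 10 reversed, among them pfkfb3 (0.28), arpc5a (-0.49), eif5a2 (-0.26), hmgb2a (-0.02), rspo3 (-0.37), calr (-0.60), psmb1 (-0.46), rps27l (-0.65) and scxa, which had 11 UMIs at Ctrl and 0 at 3 dpa (-0.04 with the 0 set to a floor of 3 counts). From 16000 UMIs 2 reversed, ccl19a.1 (-1.02) and c4b (-1.19).

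No paired analysis was possible because each condition was 1 library, and for the same reason leaving out a replicate was not possible. Fish, dissociation and library cannot be told apart from injury, and the 26 Ctrl cells of at least 16000 UMIs limit every comparison of deep cells.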
